A study of Mus musculus with 45 samples.

Results

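Homeostatic microglia genes were followed here in the hippocampus of transgenic mice on 2 diets. The set was given by name and holds 9 genes, P2ry12, P2ry13, Gpr34, Cx3cr1, Csf1r, Siglech, Selplg, Tmem119 and Olfml3, and all 9 were among the 15897 genes of the deposited table. Hippocampal poly(A) RNA came from 45 female C57Bl/6J mice, each a separate animal. AwTw mice (n = 6 on STD, 6 on TWD) were wild-type littermates. A+Tw mice (n = 5 on STD, 6 on TWD) carried APPswe/PS1dE9, a chimeric mouse and human APP and a human presenilin 1, both driven by the mouse prion protein promoter. AwT+ mice (n = 6 and 6) carried human Tau P301L under the CaMKII promoter, which is active in forebrain neurons. A+T+ mice (n = 4 and 6) carried both, from a cross of the heterozygous lines. The standard diet (STD) held 5% fat and 0.0% cholesterol. The typical Western diet (TWD) held 21% fat and 0.15% cholesterol. Diets were given from the age of 7 months until sacrifice at 13 months.

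Microglia are the resident macrophages of the brain. In the healthy brain they express a set of surface receptors and secreted proteins with which they sense nucleotides, chemokines and growth factors, and these are known as homeostatic genes. Around amyloid plaques microglia are known to take up another state, called disease-associated, in which lysosomal, lipid and phagocytic genes are higher and homeostatic genes lower per cell. P2ry12, P2ry13 and Gpr34 are G protein-coupled receptors, the first a sensor of ADP that guides microglial processes and the third a receptor of lysophosphatidylserine. Cx3cr1 is the receptor of the neuronal chemokine fractalkine (Cx3cl1), and Csf1r is the receptor of Csf1 and Il34 on which microglial survival depends. Siglech is a sialic acid binding lectin, and Selplg is the ligand of P-selectin. Tmem119 is a transmembrane protein used as a microglial marker, and Olfml3 is a secreted glycoprotein of the olfactomedin family.

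The 9 genes differ widely in base composition, and some results below are read beside this property, so it is shown first. Over the annotated transcripts of each gene, the GC content was 36.8% for Gpr34, 39% for P2ry12, 44.7% for P2ry13, 49.4% for Siglech, 50.2% for Cx3cr1, 53.1% for Olfml3, 54.1% for Csf1r, 55% for Selplg and 60.8% for Tmem119. The median over all 15695 genes with a value was 50.8%. Gpr34 lay at percentile 0.325 and P2ry12 at percentile 1.88 of all genes, while Tmem119 lay at percentile 96.7. The first 150 coding bases of the genes at both ends of this order are printed to show the contrast, with G and C in capitals and all from a single coding exon (GENCODE M21, GRCm38). The Gpr34 stretch lies on the plus strand at chrX:13639234-13639383 and holds 58 G or C, and the Tmem119 stretch lies on the minus strand at chr5:113795589-113795738 and holds 97.
Gpr34: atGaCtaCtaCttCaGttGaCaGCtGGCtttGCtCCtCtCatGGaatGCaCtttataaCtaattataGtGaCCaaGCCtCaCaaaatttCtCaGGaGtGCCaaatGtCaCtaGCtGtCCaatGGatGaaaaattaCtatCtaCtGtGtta
Tmem119: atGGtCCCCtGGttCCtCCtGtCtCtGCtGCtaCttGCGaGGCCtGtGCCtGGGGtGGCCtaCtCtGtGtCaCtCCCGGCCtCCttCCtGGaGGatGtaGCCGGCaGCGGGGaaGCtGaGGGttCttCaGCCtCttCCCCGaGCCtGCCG
Over the whole coding sequence, the GC content was 38.1% for Gpr34 and 62.4% for Tmem119.

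The genes lie on 6 chromosomes, and some of them are neighbours (GRCm38, GENCODE M21). P2ry12 (chr3:59216272-59262871) and P2ry13 (chr3:59207892-59210882) lie next to each other on the minus strand, both inside Med12l on the plus strand. Gpr34 (chrX:13632089-13640858, plus strand) lies inside Cask on the minus strand. Tmem119 (chr5:113793729-113800516) and Selplg (chr5:113818536-113832644) are also close to each other, both on the minus strand. Olfml3 is on chromosome 3, Cx3cr1 on chromosome 9 and Siglech on chromosome 7. Libraries were stranded, but the strand setting of the read assignment is not given in the sources used here, so reads of a gene and of its antisense host may not be fully told apart. RefSeq upstream windows of 250 bases (GRCm38.p6) were matched for P2ry12, P2ry13, Cx3cr1, Siglech and Olfml3, and none was at hand for Gpr34, Csf1r, Selplg and Tmem119. The windows of P2ry12, Cx3cr1 and Siglech overlap an annotated exon. The binding box of PU.1, the factor that specifies the microglial lineage, was searched as GAGGAA on both strands and found in 1 of the 5 windows, that of P2ry13, against 23.3% of 32851 windows. The P2ry13 window is printed because it holds the box, which is in capitals (minus strand, chr3:59210883-59211132).
P2ry13: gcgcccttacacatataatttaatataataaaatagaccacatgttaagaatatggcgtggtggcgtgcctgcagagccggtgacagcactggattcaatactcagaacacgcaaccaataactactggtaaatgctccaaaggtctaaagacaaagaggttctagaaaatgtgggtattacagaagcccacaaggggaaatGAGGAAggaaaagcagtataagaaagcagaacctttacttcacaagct
A match is a description of these letters only.

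Values are variance-stabilized counts on a log2-like scale with batch removed. For well expressed genes a difference of 1 is close to a doubling. For genes of low counts, such as Gpr34, it stands for more than a doubling. The values are not scaled by transcript length, so levels are compared between mice and not between genes. They hold no measure of sequencing depth. Medians per mouse lay between 8.05 and 8.31. As a check of the labels, App was higher in A+ carriers by 0.90 ± 0.05 (SE, limma, adjusted p = 2.94e-19), whose transgene is partly mouse. Mapt did not differ between T+ carriers and non-carriers (0.06 ± 0.05, adjusted p = 0.999), which checks nothing for a human transgene counted on mouse transcripts. Of the genes that mark other cell types, the choroid plexus set varied widely, and its standardised mean ran from -1.45 to 1.33 over the mice.

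**Figure D1:**
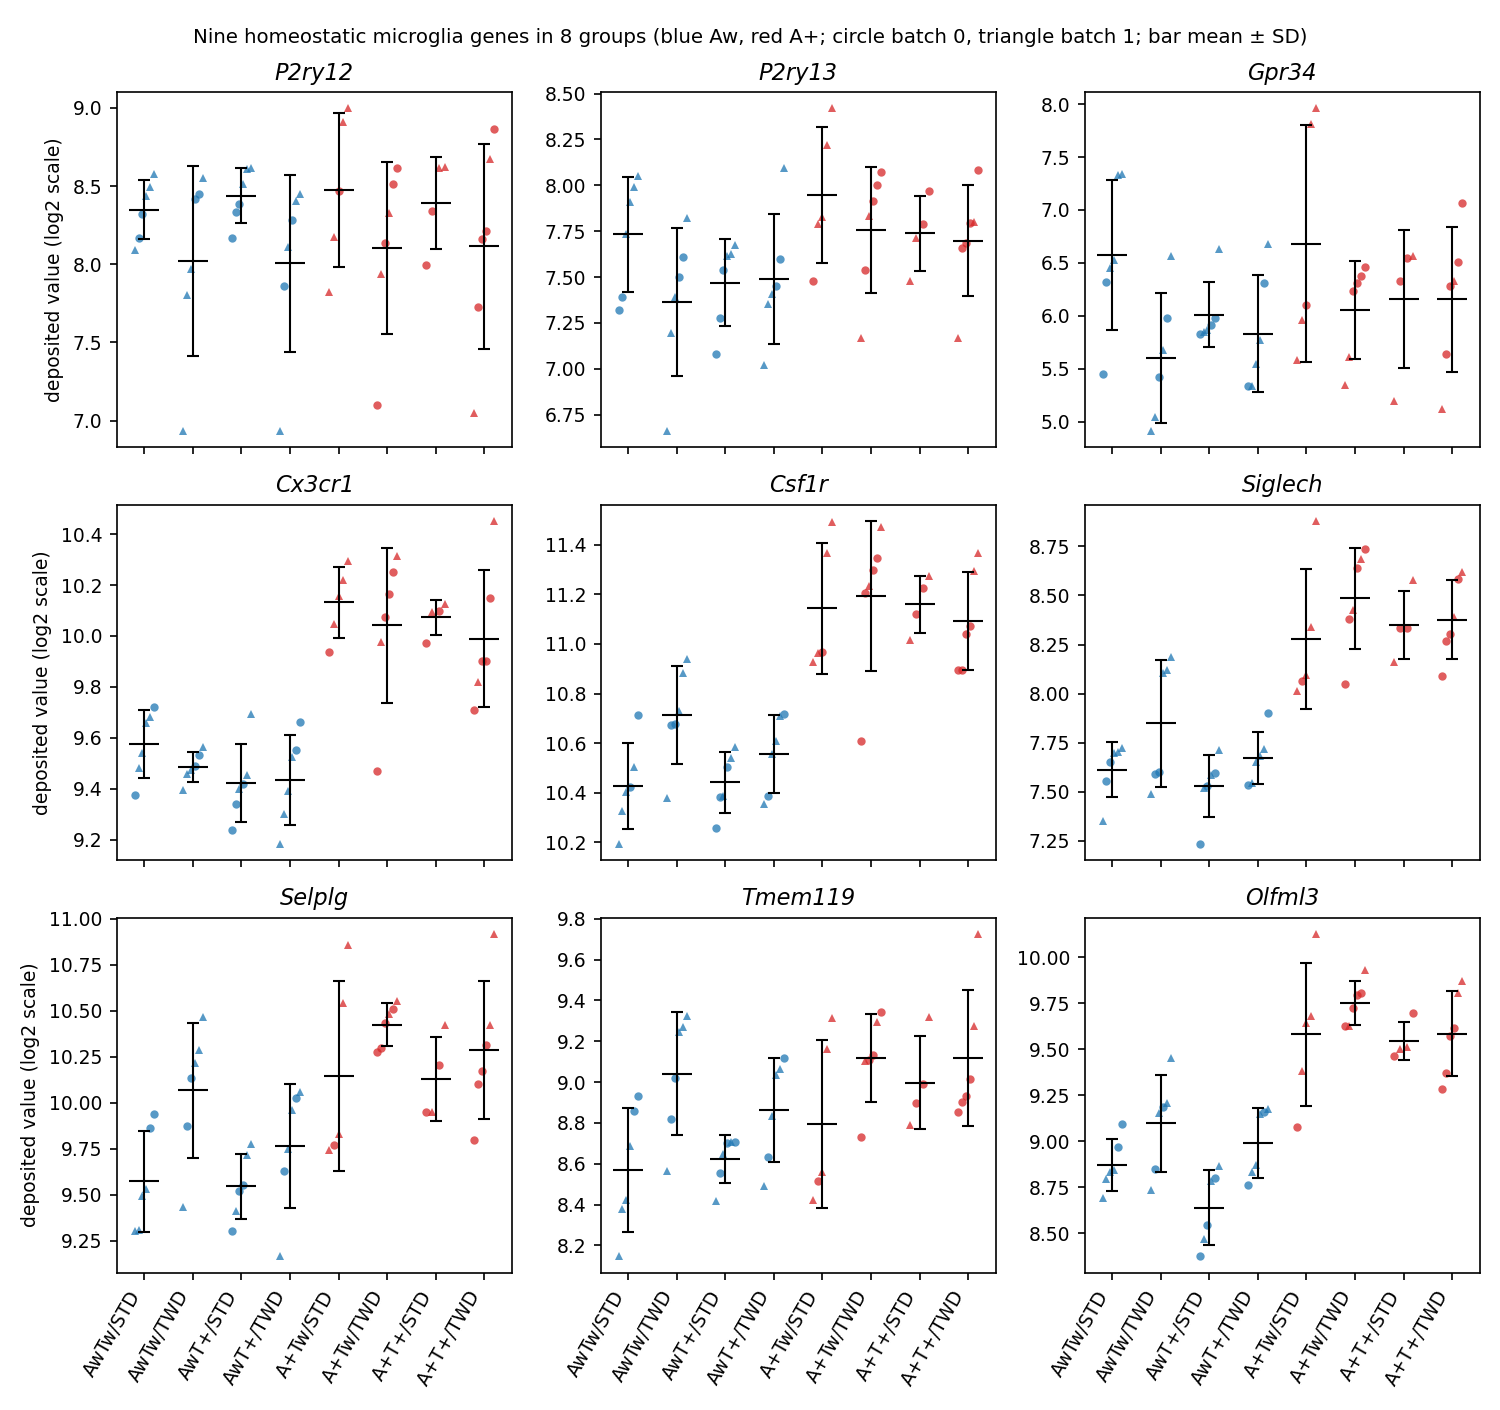
Deposited value (log2 scale) of the 9 genes in each of the 8 groups, with 1 point per mouse, circles for batch 0 and triangles for batch 1, and bars for the mean and SD. For Cx3cr1, Csf1r, Siglech, Olfml3 and Selplg the means of all A+ groups (red) lie above those of all Aw groups (blue), while single mice overlap. P2ry12 shows 1 mouse at or below 7.10 in each TWD group.

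The first question was whether the homeostatic genes differed between mice with and without APPswe/PS1dE9. Of the 9 genes, 5 rose in A+ carriers (n = 21) against non-carriers (n = 24), and none fell, while 3.04% of all genes rose and 0.642% fell. The genes that rose were Olfml3, Siglech, Csf1r, Cx3cr1 and Selplg. The median difference over the 9 genes was 0.52, against -0.02 over all genes tested. P2ry12, P2ry13, Gpr34 and Tmem119 did not pass the threshold of an adjusted p of 0.05 (limma, Benjamini-Hochberg over all 15897 genes, two-sided). In bulk tissue, fewer cells of a type and less RNA per cell cannot be told apart, and the same holds for more cells and more RNA per cell.

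Cx3cr1 values on STD ran from 9.24 to 9.72 with a median of 9.47 in the 12 Aw mice and from 9.94 to 10.29 with a median of 10.10 in the 9 A+ mice. On TWD they ran from 9.18 to 9.66 (median 9.48) in the 12 Aw mice and from 9.47 to 10.45 (median 10.03) in the 12 A+ mice. All 9 A+ mice on STD were thus above every Aw mouse, and 11 of 12 were on TWD. Cx3cr1 was higher in A+ carriers by 0.59 ± 0.06 (SE, limma, adjusted p = 4.28e-11). The 4 A+ group means lay between 9.99 and 10.13 and the 4 Aw group means between 9.42 and 9.58. Among the A+ groups, Cx3cr1 was 10.13 ± 0.14 (SD, n = 5) in A+Tw/STD, 10.07 ± 0.07 (n = 4) in A+T+/STD, 10.04 ± 0.31 (n = 6) in A+Tw/TWD and 9.99 ± 0.27 (n = 6) in A+T+/TWD. Each step between neighbours in this order was smaller than the SD of either group.

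Csf1r (chr18:61100598-61132149, plus strand) on STD ran from 10.19 to 10.71 (median 10.41) in Aw mice and from 10.93 to 11.49 (median 11.12) in A+ mice, again with no overlap. On TWD the ranges met, from 10.36 to 10.94 (median 10.68) in Aw and from 10.61 to 11.47 (median 11.22) in A+ mice, and 9 of 12 A+ mice were above every Aw mouse. The difference was 0.62 ± 0.06 (SE, limma, adjusted p = 1.57e-10). Siglech on STD ran from 7.24 to 7.72 (median 7.59) in Aw and from 8.01 to 8.88 (median 8.33) in A+ mice. On TWD it ran from 7.49 to 8.19 (median 7.67) in Aw and from 8.05 to 8.74 (median 8.41) in A+ mice. The groups did not overlap on STD, and 10 of 12 A+ mice were above every Aw mouse on TWD. Siglech was higher in A+ carriers by 0.72 ± 0.07 (SE, adjusted p = 3.1e-11, limma).

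Cx3cr1, Csf1r and Siglech were therefore the 3 of 9 genes whose values did not overlap between A+ and Aw mice on STD, where 0.686% of all genes had A+ values wholly above. On TWD the count was 0 of 9, with 0.239% of all genes. Olfml3 came close on STD, with 8 of 9 A+ mice above every Aw mouse. Its values on STD ran from 8.37 to 9.09 (median 8.80) in Aw and from 9.08 to 10.13 (median 9.51) in A+ mice, and on TWD from 8.73 to 9.45 (median 9.15) and from 9.28 to 9.93 (median 9.67). Olfml3 was higher in A+ carriers by 0.72 ± 0.07 (SE, limma, adjusted p = 8.93e-12). Selplg overlapped more, with 6 of 9 A+ mice above every Aw mouse on STD and 4 of 12 on TWD. Its range on STD was 9.30 to 9.94 (median 9.52) in Aw and 9.74 to 10.86 (median 9.95) in A+ mice, and on TWD 9.16 to 10.47 (median 9.99) and 9.80 to 10.92 (median 10.37). Selplg was higher by 0.52 ± 0.09 (SE, limma, adjusted p = 0.000113). Within batch 0 alone its difference was 0.33 (adjusted p = 0.095) and within batch 1 alone 0.71 (adjusted p = 0.00577), while the other 4 genes passed the threshold within each batch.

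P2ry12, P2ry13, Gpr34 and Tmem119 gave smaller differences with wide ranges. P2ry12 was at 6.94 to 8.62 (median 8.36) in the 24 Aw mice and at 7.05 to 9.0 (median 8.33) in the 21 A+ mice, so the ranges lay over each other. Its difference was 0.07 ± 0.14 (SE, limma, adjusted p = 0.84). P2ry13 differed by 0.28 ± 0.10 (adjusted p = 0.122) and Tmem119 by 0.24 ± 0.08 (adjusted p = 0.129). Gpr34 had the widest spread of the 9 genes, with an SD of 0.69 over all mice, and differed by 0.27 ± 0.20 (adjusted p = 0.51). P2ry13 and Gpr34 passed the threshold once a trend over GC content and transcript length was removed from each mouse, an alternative added after the data were seen. Their differences were then 0.36 and 0.44, at an adjusted p of 2.9e-05 for P2ry13 and 0.00054 for Gpr34, and 7 of the 9 genes were higher while 3.54% of 15695 genes rose and 1.98% fell. Over all genes, the A+ calls went from 484 higher and 102 lower to 555 higher and 310 lower, so that the higher share of calls moved from 82.6% to 64.2% while both counts rose. P2ry12 (0.21, adjusted p = 0.305) and Tmem119 (0.17, adjusted p = 0.0591) stayed below the threshold there.

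**Figure D2:**
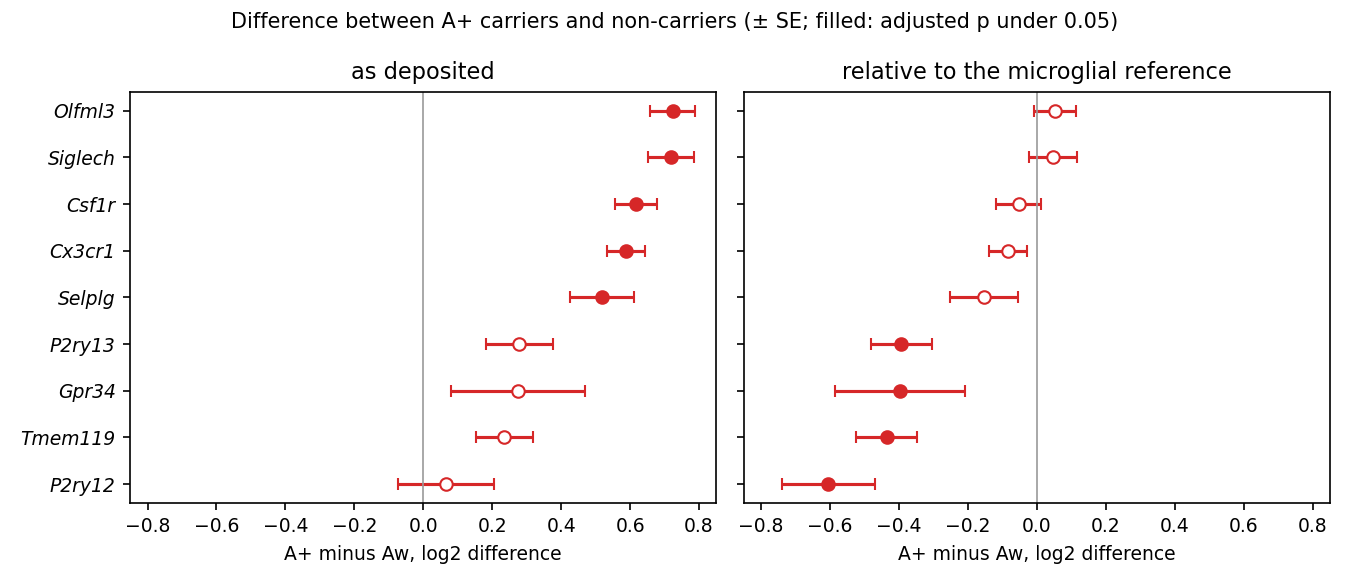
Log2 difference between A+ carriers (n = 21) and non-carriers (n = 24) with its SE, as deposited (left) and after subtraction of the microglial reference of 8 genes (right), with filled points for an adjusted p under 0.05. Olfml3, Siglech, Csf1r and Cx3cr1 move from about 0.6 to 0.7 to near 0, and P2ry12 from 0.07 to -0.60.

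Genes that microglia express in most states also rose, so the 9 genes were next compared with them. The reference was the mean of Aif1, Itgam, Ptprc, Cd53, Laptm5, Ly86, Cyth4 and Hcls1, all 8 of which rose in A+ carriers, by 0.38 for Cyth4 up to 1.13 for Ly86, with a median of 0.58. The mean of the reference was 7.66 ± 0.12 (SD, n = 24) in Aw and 8.32 ± 0.10 (n = 21) in A+ mice, with no overlap between 7.91 as the highest Aw and 8.13 as the lowest A+ value. Relative to it, 4 of the 9 genes were lower in A+ carriers and 0 were higher. Since most genes of the hippocampus are not microglial, 97.7% of all genes were lower and 0.384% higher on this scale, and the share of members is read only gene by gene. P2ry12 was lower by -0.60 ± 0.13 (SE, limma, adjusted p = 5.34e-05), Tmem119 by -0.44 ± 0.09 (adjusted p = 1.32e-05), Gpr34 by -0.40 ± 0.19 (adjusted p = 0.0431) and P2ry13 by -0.39 ± 0.09 (adjusted p = 6.19e-05). Csf1r (-0.05 ± 0.07), Cx3cr1 (-0.08 ± 0.06), Olfml3 (0.05 ± 0.06), Siglech (0.05 ± 0.07) and Selplg (-0.15 ± 0.10) did not pass. The 4 genes that were lower on this scale hold the 3 genes of lowest GC content and the 1 of highest. Over all genes the A+ difference as deposited also ran with GC content. Its median was -0.133 in the 1570 genes with the lowest GC content, of which 16% were higher in A+ carriers. In the 1570 with the highest it was 0.03, with 64.4% higher.

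This second comparison rests on the choice of the 8 reference genes. With each of them left out in turn, P2ry12, P2ry13 and Tmem119 kept an adjusted p of at most 0.000769, and Gpr34 reached 0.0926. The call of Gpr34 was also lost without any 1 of 18 mice. Within batch 1 alone, Tmem119 was at -0.20 (adjusted p = 0.141), and within batch 0 alone Gpr34 was at -0.16 (adjusted p = 0.341), while P2ry12 and P2ry13 passed within each batch.

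The A+ comparison was also made genotype by genotype within diet, each against AwTw. In A+Tw mice, 4 of 9 genes rose on STD (0.918% of all genes) and 4 of 9 on TWD (0.818%), on both diets Csf1r, Cx3cr1, Olfml3 and Siglech. In A+T+ mice, the same 4 rose on STD (1.22% of all genes), and on TWD 3 of 9 rose (0.692%), with Csf1r at 0.41 ± 0.12 (SE, limma, adjusted p = 0.118). Olfml3 differed from AwTw by 0.69 in A+Tw mice on either diet, by 0.69 in A+T+ mice on STD and by 0.52 on TWD. Siglech differed by 0.65, 0.68, 0.76 and 0.57 in the same order, Cx3cr1 by 0.55, 0.58, 0.51 and 0.53, and Csf1r by 0.70, 0.51, 0.75 and 0.41. The A+Tw and A+T+ comparisons share the AwTw mice of their diet. Some of these calls rested on single mice. Siglech was lost in A+Tw mice on STD without A+Tw/STD replicate 2, Csf1r in A+Tw mice on TWD without A+Tw/TWD replicate 5 or AwTw/TWD replicate 5, and Cx3cr1 in A+T+ mice on STD without A+T+/STD replicate 1, 2 or 4 or AwTw/STD replicate 5. In A+T+ mice on TWD, Olfml3 was lost in 7 of 12 fits (without A+T+/TWD replicate 1, 2, 5 or 6 or AwTw/TWD replicate 2, 4 or 5), Siglech in 5 (without A+T+/TWD replicate 1 or 2 or AwTw/TWD replicate 4, 5 or 6) and Cx3cr1 in 1 (without A+T+/TWD replicate 5). The count there fell from 3 to 1 without A+T+/TWD replicate 1, 2 or 5 or AwTw/TWD replicate 4 or 5.

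The same was asked of Tau P301L. In AwT+ against AwTw mice, 0 of 9 genes passed the threshold on STD and 0 on TWD by limma, where 0% of all genes did and 0 of 9 members had an unadjusted p under 0.05. Over all T+ carriers (n = 22) against non-carriers (n = 23), 0 of 9 genes passed and 0 had an unadjusted p under 0.05, with 0.0126% of all genes called. The differences in T+ carriers lay between -0.16 (Gpr34, SE 0.19) and 0.02 (Tmem119, SE 0.08). In the test of whether the A+ difference depended on Tau P301L, 0 of 9 genes and 0% of all genes passed, and the members' interaction terms lay between -0.07 and 0.15, 0 of them with an unadjusted p under 0.05.

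The second question was whether the homeostatic genes differed between diets. Over all genotypes, 4 of 9 genes were higher on TWD (n = 24) than on STD (n = 21) and 1 was lower. This has to be read against the whole table, where 16.0% of genes were higher and 13.4% lower. The median of the 9 genes was 0.12. Tmem119 rose by 0.30 ± 0.08 (SE, limma, adjusted p = 0.0159), Selplg by 0.31 ± 0.09 (adjusted p = 0.0189), Olfml3 by 0.22 ± 0.06 (adjusted p = 0.0177) and Siglech by 0.17 ± 0.07 (adjusted p = 0.0497). P2ry12 fell, with a difference of -0.36 ± 0.14 (adjusted p = 0.0459). Gpr34 was at -0.47 ± 0.19 (adjusted p = 0.0623), P2ry13 at -0.15 ± 0.10 (adjusted p = 0.229), Csf1r at 0.12 ± 0.06 (adjusted p = 0.133) and Cx3cr1 at -0.05 ± 0.06 (adjusted p = 0.463).

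Tmem119 ranged from 8.15 to 9.32 with a median of 8.70 on STD and from 8.49 to 9.73 with a median of 9.05 on TWD. P2ry12 ranged from 7.82 to 9.0 with a median of 8.44 on STD and from 6.94 to 8.86 with a median of 8.18 on TWD. The ranges overlapped between diets for both genes, with the lower end of P2ry12 shifted. Each TWD group held 1 mouse with P2ry12 near 7, namely AwTw replicate 3 (6.94), AwT+ replicate 3 (6.94), A+T+ replicate 1 (7.05) and A+Tw replicate 3 (7.10), whereas the lowest mouse on STD was at 7.82. The first 3 of these mice were in batch 1 and had Gpr34 at 4.91, 5.34 and 5.12, and the last was in batch 0 with Gpr34 at 6.38. The order of the P2ry12 group means followed diet rather than genotype, with the 4 STD groups between 8.35 and 8.47 and the 4 TWD groups between 8.01 and 8.11. The low mice pull down each TWD mean, and the SD of the TWD groups ran from 0.55 to 0.66. Group medians lay closer, between 8.38 and 8.48 on STD and between 8.18 and 8.23 on TWD.

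The diet comparison was also made within each batch. In batch 0 alone (n = 8 on STD, 12 on TWD), 0 of 9 genes passed by limma, as did 0% of all genes in either direction, and the members' differences lay between -0.06 (P2ry12) and 0.24 (Selplg). In batch 1 alone (n = 13 and 12), 7 of 9 genes passed, beside 20.3% of all genes higher and 20.6% lower. Gpr34 was at -0.85 (adjusted p = 0.028), P2ry12 at -0.57 (adjusted p = 0.0309), P2ry13 at -0.41 (adjusted p = 0.0256), Tmem119 at 0.45 (adjusted p = 0.0176), Selplg at 0.40 (adjusted p = 0.0316), Olfml3 at 0.27 (adjusted p = 0.0212) and Csf1r at 0.21 (adjusted p = 0.0407). P2ry13 had opposite signs, 0.16 in batch 0 and -0.41 in batch 1, and so did Cx3cr1, with 0.04 and -0.09. The difference between batches was not tested, and the batches differed in size and in the mix of genotypes on each diet. P2ry12 and Siglech also lost their calls without single mice, P2ry12 without any 1 of 23 and Siglech without any 1 of 28 of the 45.

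**Figure D3:**
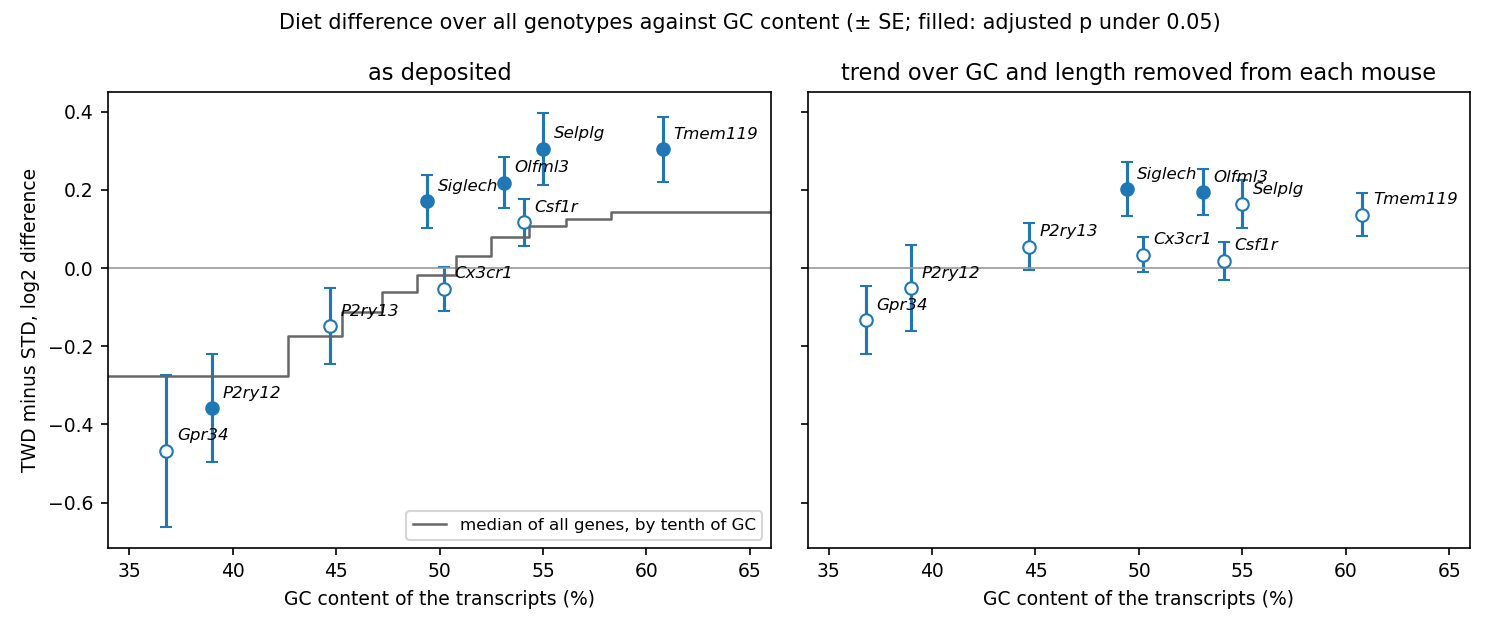
TWD minus STD over all genotypes (log2 difference ± SE) against the GC content of each gene, as deposited (left, with a line for the median of all genes in each of 10 classes of GC content) and after a trend over GC content and length was removed from each mouse (right). On the left the points run from -0.47 for Gpr34 to 0.30 for Tmem119, along with the line, and on the right from -0.13 to 0.20.

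The diet difference tended to be negative in genes of low and positive in genes of high GC content. The 3 genes with the lowest GC content, Gpr34, P2ry12 and P2ry13, had differences of -0.47, -0.36 and -0.15, and the 4 with the highest, Olfml3, Csf1r, Selplg and Tmem119, had 0.22, 0.12, 0.31 and 0.30. Siglech and Cx3cr1 between them went against this order, as Siglech (49.4% GC) was at 0.17 and Cx3cr1 (50.2% GC) at -0.05. The table as a whole ran in the same direction. The median difference was -0.275 in the 1570 genes with the lowest GC content (32.3 to 42.7%) and 0.143 in the 1570 with the highest (58.3 to 75.6%). Of the former, 7.52% of genes were higher on TWD, and of the latter 84.9%. When a smooth trend over GC content and transcript length was taken out of each mouse, 2 of 9 genes stayed past the threshold, Olfml3 at 0.19 (adjusted p = 0.0238) and Siglech at 0.20 (adjusted p = 0.0395), with 11.3% of 15695 genes higher and 7.17% lower. P2ry12 was then at -0.05 (adjusted p = 0.769), Gpr34 at -0.13 (adjusted p = 0.275), Selplg at 0.16 (adjusted p = 0.0503) and Tmem119 at 0.14 (adjusted p = 0.07). The first component of the residuals, which took 41.3% of the residual variance, moved with diet as well. Its standardised score averaged -0.45 ± 0.85 (SD, n = 21) on STD and 0.39 ± 0.97 (n = 24) on TWD, and with it as a covariate 0 of 9 genes and 0 of all genes passed for diet. Of the TWD mice with P2ry12 near 7, AwTw replicate 3, AwT+ replicate 3 and A+T+ replicate 1 had scores of 2.30, 1.67 and 2.42. A+Tw replicate 3 had 0.73. The score is built from the loadings of these same data. What moved with base composition in these libraries was not tested.

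Relative to the microglial reference, P2ry12 (-0.42 ± 0.13 SE, limma, adjusted p = 0.02) and Gpr34 (-0.53 ± 0.19, adjusted p = 0.0332) were lower on TWD and Tmem119 was higher (0.24 ± 0.09, adjusted p = 0.0379). On this scale 4.03% of all genes were higher and 23.6% lower. With the trend over GC content and length removed, 0 of the 9 genes passed. Without single mice, Tmem119 lost its call in 17 of the 45 fits and Gpr34 in 9.

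Within single genotypes, 0 of 9 genes passed for diet by limma in any of the 4. In AwTw mice 9.35% of all genes passed. An unadjusted p under 0.05 was found for 4 of 9 members and for 6391 of all 15897 genes. Tmem119 was at 0.47 ± 0.16 (SE, adjusted p = 0.0503), Selplg at 0.49 ± 0.18 (adjusted p = 0.0549), Gpr34 at -0.97 ± 0.37 (adjusted p = 0.0605) and Csf1r at 0.29 ± 0.12 (adjusted p = 0.0699). These values lay close to the threshold, and the count was 3 without AwTw/STD replicate 2, 4 without AwTw/STD replicate 6, 2 without AwTw/TWD replicate 4 and 4 without AwTw/TWD replicate 5. In A+T+, A+Tw and AwT+ mice 0% of all genes passed, and 0, 1 and 1 of 9 members had an unadjusted p under 0.05. Of all 15897 genes, 409, 705 and 1183 did so in the same order. The median over the 9 members was 0.22 in AwTw mice, -0.01 in A+T+ mice, 0.09 in A+Tw mice and 0.10 in AwT+ mice. Gpr34 differed by -0.01 ± 0.41 in A+T+ mice, by -0.65 ± 0.40 in A+Tw mice and by -0.17 ± 0.37 in AwT+ mice. The tests of a different genotype effect on TWD than on STD passed for 0 of 9 genes and 0% of all genes in each transgenic genotype, and 0 of 9 members had an unadjusted p under 0.05. The smallest adjusted p was 0.56, in A+T+ mice, where Csf1r was at -0.34 ± 0.17 and Gpr34 at 0.96 ± 0.55.

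**Figure D4:**
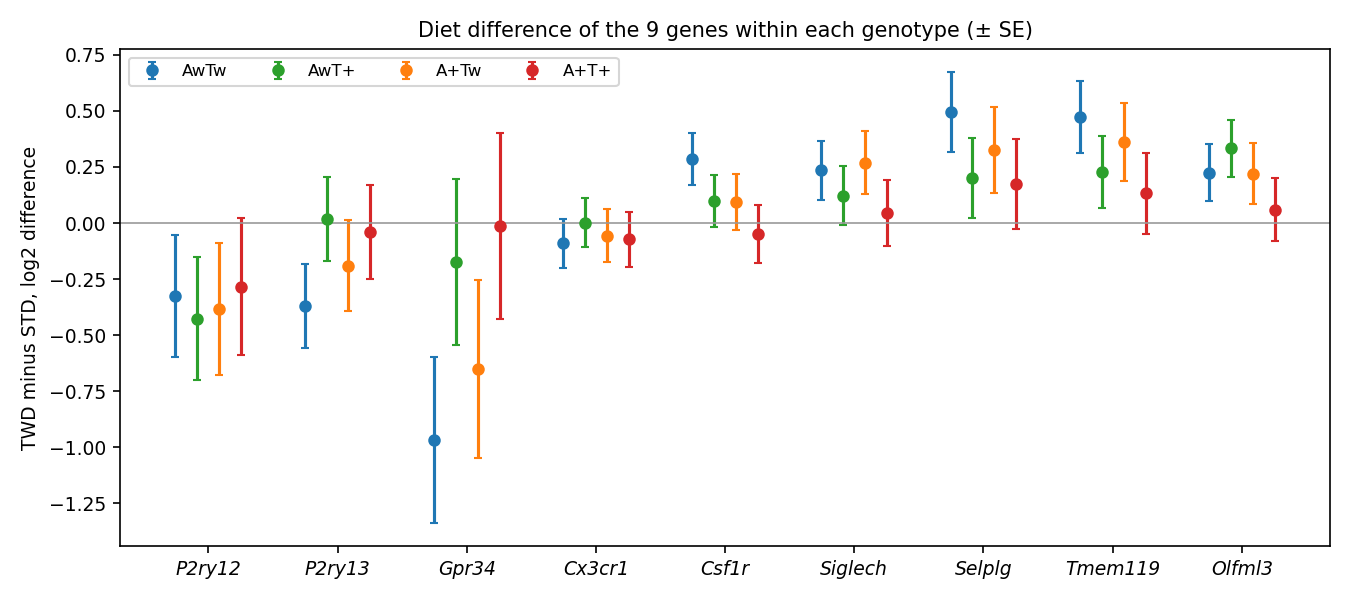
TWD minus STD (log2 difference ± SE) of each of the 9 genes within each of the 4 genotypes. Points of Gpr34 run from -0.97 in AwTw to -0.01 in A+T+ mice, and those of Cx3cr1 from -0.09 to 0.00.

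Mice of the same group also differed from each other, and the 9 genes did not vary as a single block. With group and batch removed, 27 of 36 pairs of genes were correlated over the 45 mice (permutation test, adjusted over the pairs), 16 positively and 11 negatively. The smallest absolute r among these was 0.341, which 41.1% of all pairs of genes in the table reached, 20.7% with a positive and 20.4% with a negative r. Tmem119 and Selplg had r = 0.91 (rho = 0.895, both permutation p = 1e-05, the smallest that the permutations can give, adjusted p = 3e-05), and r = 0.89 without the 2 mice farthest from the median of Tmem119. Tmem119 and Csf1r had r = 0.847 (rho = 0.877, adjusted permutation p = 3e-05). P2ry13 correlated with Gpr34 (r = 0.732, rho = 0.728, adjusted permutation p = 3e-05) and with its neighbour P2ry12 (r = 0.7, rho = 0.676, adjusted permutation p = 3e-05). Gpr34 and Selplg had the most negative value, r = -0.814 (rho = -0.774, adjusted permutation p = 3e-05), and r = -0.801 without the 2 farthest mice.

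**Figure D5:**
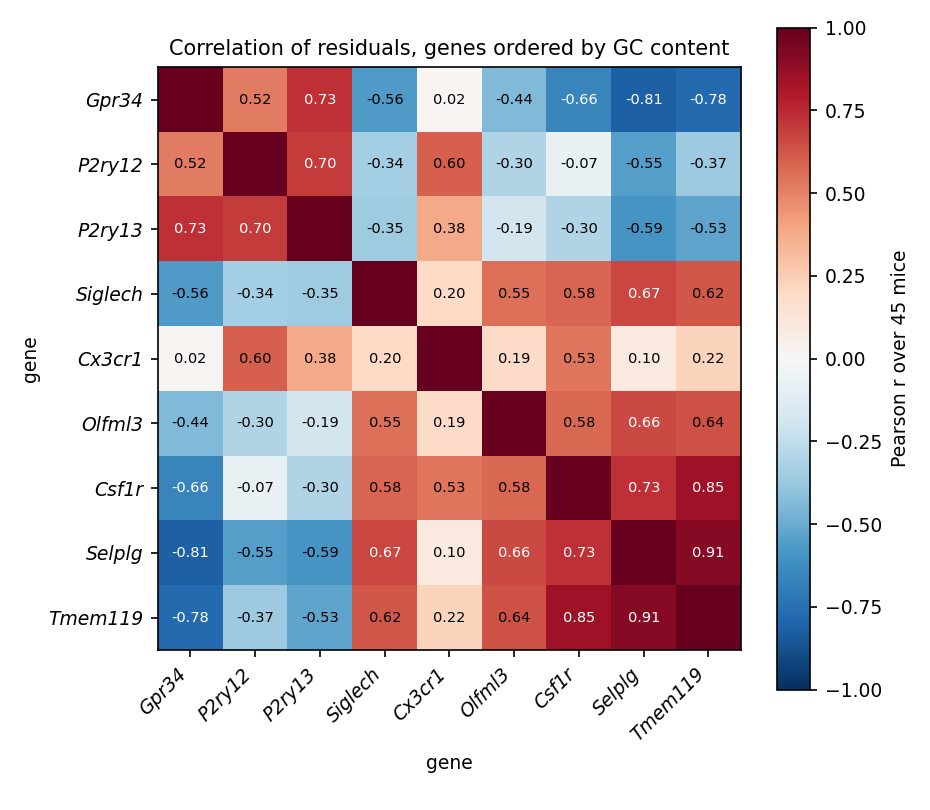
Pearson r between the 9 genes over 45 mice after group and batch were removed, with genes ordered from the lowest (Gpr34) to the highest GC content (Tmem119). A block of positive values joins Olfml3, Csf1r, Selplg and Tmem119, with r from 0.578 to 0.91, and negative values join Gpr34 with each of them. Siglech, of lower GC content, also had positive values with each gene of the block, from 0.547 to 0.665, and r = -0.565 with Gpr34.

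These correlations were also taken within each batch. In batch 1 alone (n = 25), 28 of 36 pairs passed and all 36 had the sign found over both, while in batch 0 alone (n = 20) 11 passed and 30 had that sign. The share of all pairs of genes was taken over both batches only, and the difference between batches was not tested. P2ry12 and Csf1r had r = 0.594 in batch 0 and -0.505 in batch 1, and Gpr34 and Selplg -0.58 and -0.895. The members also followed the first residual component in opposite directions, with r = -0.85 for Gpr34, -0.814 for P2ry13 and -0.777 for P2ry12 against 0.867 for Selplg and 0.788 for Tmem119, and -0.257 for Cx3cr1. For the mean of the 9 standardised residuals, the most alike genes outside the set were Dpp6 (r = 0.756, rho = 0.762), Cs (r = 0.734, rho = 0.699), Ankrd40 (r = 0.718, rho = 0.696), Epdr1 (r = 0.716, rho = 0.688) and Cyp4f14 (r = 0.7, rho = 0.654), all over 45 mice that share the libraries. None of them is in the microglial lists used here. Single members correlated with the mean of the other 8 at r from -0.442 (Gpr34) to 0.655 (Csf1r).

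The ligands and partners of the receptors were followed as well, of which 10 of 11 were in the table. In A+ carriers 3 of 10 rose, beside 3.04% of all genes. Tyrobp, the adaptor of Trem2, rose by 1.71 ± 0.09 (SE, limma, adjusted p = 7.22e-19), Tgfb1, the cytokine that maintains the homeostatic program, by 0.63 ± 0.08 (adjusted p = 2.75e-07) and Csf1 by 0.32 ± 0.06 (adjusted p = 0.000114). Il34, the other ligand of Csf1r, was at -0.03 ± 0.08 (adjusted p = 0.867), and Cx3cl1, the ligand of Cx3cr1, at -0.12 ± 0.06 (adjusted p = 0.312). On TWD, 3 of 10 were higher and 2 lower, beside 16.0% and 13.4% of all genes. Cx3cl1 rose by 0.16 ± 0.06 (adjusted p = 0.0382) and Tyrobp by 0.39 ± 0.09 (adjusted p = 0.0157). The proteases Adam10 (-0.42 ± 0.13, adjusted p = 0.0176) and Adam17 (-0.26 ± 0.08, adjusted p = 0.0206) fell. Csf1 (0.00 ± 0.06, adjusted p = 0.965) and Il34 (0.19 ± 0.08, adjusted p = 0.055) did not pass.

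Of 8 regulators of the microglial transcription program, 6 rose in A+ carriers and 0 fell, beside 3.04% and 0.642% of all genes. The median of the 8 was 0.48. Among those that rose were Irf8 (1.08 ± 0.06 SE, limma, adjusted p = 2.94e-19), Cebpa (0.53 ± 0.08, adjusted p = 1.03e-05) and Spi1, which codes for PU.1 (0.57 ± 0.09, adjusted p = 2.35e-05). On TWD, 0 of 8 rose and 2 fell, beside 16.0% and 13.4% of all genes. These were Runx1 (-0.23 ± 0.08, adjusted p = 0.0275) and Mef2c (-0.54 ± 0.19, adjusted p = 0.0306). Mef2c is also expressed by neurons.

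A wider list of 23 homeostatic genes was measured beside the 9. In A+ carriers 12 of 23 rose and 0 fell, beside 3.04% and 0.642% of all genes. The median of the 23 was 0.31. Csf3r (1.02 ± 0.07 SE, limma, adjusted p = 5.25e-16), Fcrls (1.00 ± 0.07, adjusted p = 1.32e-15) and Vsir (0.67 ± 0.09, adjusted p = 1.57e-07) were among those that rose. On TWD 3 of 23 rose and 2 fell, shares no larger than the 16.0% and 13.4% of all genes, among them Rgs10 (0.26 ± 0.07, adjusted p = 0.0159), the TGF-beta receptor Tgfbr1 (-0.57 ± 0.17, adjusted p = 0.0195), Ecscr (0.23 ± 0.07, adjusted p = 0.0217) and Sall1 (-0.22 ± 0.08, adjusted p = 0.0306). For comparison, 21 of 23 genes of the disease-associated state rose in A+ carriers, beside 3.04% of all genes. The median of these 23 was 1.12. First were Cst7 (4.13 ± 0.09, adjusted p = 3.67e-33), Itgax (2.32 ± 0.09, adjusted p = 3.49e-23), Ccl3 (1.69 ± 0.08, adjusted p = 7.2e-22) and Cd68 (1.74 ± 0.08, adjusted p = 9.42e-21). On TWD 5 of 23 rose and 0 fell, beside 16.0% and 13.4% of all genes, with Trem2 (0.34 ± 0.10, adjusted p = 0.0167) and Cd52 (0.26 ± 0.08, adjusted p = 0.0172) first.

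Other cells that could carry these transcripts were checked by their markers. Of 5 measured genes of border macrophages, which express Csf1r and Cx3cr1 too, 0 of 5 passed for A+ or for diet by limma, with 1 of 5 at an unadjusted p under 0.05 in each. Mrc1 was at 0.12 ± 0.13 and Cd163 at 0.19 ± 0.09 in A+ carriers. The 5 genes listed for monocytes and neutrophils, Ccr2, Ly6c2, S100a8, S100a9 and Plac8, were not among the analysed genes. Choroid plexus genes had a median of 0.87 in A+ carriers and -0.52 on TWD, with 0 of 10 past the threshold in either and 8 and 1 at an unadjusted p under 0.05. Of all 15897 genes, 1216 were higher and 1161 lower at an unadjusted p under 0.05 in A+ carriers. On TWD these were 3583 and 3430. The choroid plexus index averaged -0.25 ± 1.06 (SD, n = 24) in Aw and 0.28 ± 0.80 (n = 21) in A+ mice. With this index as a covariate, the 5 genes that rose in A+ carriers still did, with Cx3cr1 at 0.64 and Csf1r at 0.64.

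The antisense host genes had negative differences in A+ carriers. Med12l, which holds P2ry12 and P2ry13, was at -0.20 ± 0.10 (SE, limma, adjusted p = 0.3), and Cask, which holds Gpr34, at -0.25 ± 0.13 (adjusted p = 0.337). On TWD Cask fell, with a difference of -0.47 ± 0.13 (adjusted p = 0.0157) beside the -0.47 of Gpr34, and Med12l was at -0.22 ± 0.09 (adjusted p = 0.0671) beside the -0.36 of P2ry12. The part of host reads in these values was not tested.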

How the data were processed

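Hippocampal RNA of 45 mice was analysed, with genotype, diet and batch taken from the labels (20 mice in batch 0, 25 in batch 1). The authors processed the single reads with Trimmomatic 0.38, filtered out those matching rRNA or mitochondria (Bowtie2 2.2.3), quantified transcripts with kallisto 0.44.0, summed them per gene, filtered on low mean counts, applied the variance-stabilizing transformation of DESeq2 1.22.2 and removed batch with limma 3.38.3. The deposited values are thus on a log2-like scale. They give no depth, so precision rests on the spread between mice. For every gene the batch means are equal, so batch was removed without holding the groups in place, and batch was kept in each model.

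Genes were tested with limma 3.58.1 (R 4.3.3, empirical Bayes with a mean trend, two-sided) in a fit of the 8 groups and batch, and in an additive fit with terms for genotype, diet and batch. Benjamini-Hochberg adjustment ran over the 15897 genes, at a threshold of 0.05. For values relative to the microglial reference, the mean of 8 genes was subtracted per mouse. Correlations used residuals of the first fit and 100000 permutations (20000 for pairs without the 2 farthest mice). GC content and length are medians over GENCODE M21 transcripts. Fits were tested on simulated data with noise drawn independently for each gene. The simulated data hold no component shared between genes, so they do not test calls made in its presence. The members and gene lists were chosen with earlier results of these data known. All 9 members were named in each comparison, of each other list at most the 4 genes with the smallest adjusted p, and Cx3cl1, Csf1, Il34, App, Mapt, Med12l and Cask by rule, with 2 list genes that are not reported here left out. The removal of a trend over GC content and length was added after the data were seen. Python 3.11.15 with scipy 1.17.1 was used.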

Additional observations from a re-analysis of the deposited data

Results flagged for a closer look

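In 2 of the 72 combinations of a gene and a group, 1 mouse lay far from the others of its group by Dixon's test at the 95% level, which chance gives in about 1 of 20 groups. Csf1r in A+Tw/TWD had its lowest value, 10.61, in replicate 3, with the next mouse at 11.20, and the gap took up 0.69 of the range. This is the mouse with P2ry12 at 7.10 and Cx3cr1 at 9.47. Gpr34 in AwT+/STD had its highest value, 6.63, in replicate 5, with the next at 5.98 and the gap at 0.809 of the range.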

How the results depend on the processing

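The count of members higher in A+ carriers was 5 without any 1 of the 45 mice and from 4 to 7 under the other alternatives. Relative to the microglial reference the count of 4 ran from 3 to 6, and from 3 to 5 without single mice. In A+Tw mice on STD (4), the count was 0 in batch 0 alone and 0 with only the groups compared in the fit, and 3 to 4 without single mice. On TWD (4) it was 0 in either batch alone and 1 with only these groups, and 3 to 4 without single mice. In A+T+ mice on STD (4) it was 0 in either batch alone and 3 to 4 without single mice. On TWD (3) it was 1 with no batch covariate, 0 in either batch alone, 0 with only the groups compared and 1 to 3 without single mice. Batches alone hold 1 to 4 mice per group. For diet over all genotypes (5), the count was 0 in batch 0 alone, 3 with the letter prefix of mouse names as a covariate, 0 with the residual component score and 2 with the trend over GC content and length removed. It was 3 to 6 without single mice, and 3 without AwTw/STD replicates 1, 3 or 4, AwTw/TWD 1, 2 or 3, AwT+/STD 4 or 5, AwT+/TWD 2 or 3, A+Tw/STD 1, 3 or 4, A+Tw/TWD 2 or 4, A+T+/STD 4, or A+T+/TWD 1 or 2. Relative to the reference (3), it was 0 in batch 0 alone, 6 in batch 1 alone, 6 with the choroid plexus index, 0 with the residual component score, 5 without Ptprc or Cyth4 in the reference, 0 with the trend removed and 1 to 6 without single mice. It was 1 without AwTw/STD replicates 1 or 4, AwTw/TWD 1, 2 or 3, AwT+/TWD 3, A+Tw/STD 1 or 3, or A+T+/TWD 1, and 5 to 6 without AwTw/STD 2 or 6, AwTw/TWD 5, AwT+/TWD 4, A+Tw/STD 2 or 5, A+T+/STD 1 or 2, or A+T+/TWD 4. In AwTw mice the diet count of 0 became 1 with no batch covariate, 2 in batch 1 alone, 1 with the choroid plexus index, 2 with genes above the 25th percentile and 0 to 4 without single mice. Of 36 pairs of members, 27 were correlated, 11 in batch 0 alone. The cause of these changes was not tested. For T+, for the interactions and for diet in the other genotypes the count was 0 under all alternatives. No paired analysis applied, because each sample came from a separate mouse.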
